A study of Mus musculus with 6 samples.

Results

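Notch signalling was read here through 10 genes in cultured mouse biliary epithelial cells, which form the lining of bile ducts: the receptors Notch1, Notch2 and Notch3, the ligands Jag1, Jag2 and Dll1, the nuclear partner Rbpj, and the target genes Hes1, Hey1 and Nrarp. They were taken by symbol from a table of raw RNA-seq counts for 32061 genes. In the 3 cilia depleted samples the cells had received 4OHT, short for 4-hydroxytamoxifen, the ligand that activates tamoxifen-dependent Cre recombinases. In the 3 cilia competent samples they had not. The primary cilium is a sensory projection of the cell surface. In all 6 samples the ducts were picked by hand from digested liver, grown as organoids in gel and then spread on collagen. The labels give no strain, age, deleted gene or Cre driver, and whether samples of a group came from separate animals or cultures is not stated. P-values therefore reflect the spread among the samples at hand, technical or not, and 4OHT and cilium loss cannot be told apart.

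Notch receptors are cell-surface proteins that are engaged by ligands of the Jagged and Delta families on a neighbouring cell. Binding lets the protease ADAM10 and then the gamma-secretase complex cut the receptor, and the freed intracellular part enters the nucleus, where it joins RBPJ and coactivators of the Mastermind family to switch on genes such as Hes1, Hey1 and Nrarp. In the liver this pathway, with Jag1 and Notch2 at its centre, directs the formation of bile ducts, and loss of a JAG1 or NOTCH2 copy causes Alagille syndrome in people.

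Total counts were 26293486 to 36998935 in the depleted samples and 32199606 to 36093068 in the competent samples. A floor of 3 counts in a sample stood at 0.085 to 0.119 counts-per-million units (CPM, scaled by TMM) in depleted samples and 0.0797 to 0.0881 CPM in competent samples, and it covers counting error only. Wdr35, an intraflagellar transport gene taken as the deleted gene from knowledge of the study, had 739, 914 and 925 counts in depleted samples and 1211, 1148 and 1200 counts in competent samples. Scaled for library size it had 27.99 ± 1.6 CPM in depleted and 33.3 ± 1.98 CPM in competent samples (SD, n = 3 each), only 1.19-fold lower. Whole-gene counts cannot show whether an exon was deleted. Of 8 biliary markers 2 were higher, 5 lower and 1 did not pass, where 34.9% of all tested genes were higher and 34.3% lower. Their summed level was 5448 to 5693 CPM in depleted and 7293 to 7434 CPM in competent samples. All 6 endothelial markers stayed under 1 CPM in every sample, as did 6 of 8 mesenchymal, 4 of 6 hepatocyte and 4 of 6 leukocyte markers. The leukocyte marker Csf1r had 40.0 to 45.1 CPM in depleted and 46.7 to 47.5 CPM in competent samples. Of the others, hepatocyte Ttr averaged 11.3 CPM in depleted and 16.0 CPM in competent samples, and mesenchymal Acta2 0.344 and 1.29 CPM, both lower. Leukocyte Cd68, at 5.41 and 3.42 CPM, and mesenchymal Col1a1, at 3.04 and 1.38 CPM, were higher. Hepatocyte Alb, at 2.57 and 2.61 CPM, did not pass. Krt19, a keratin that defines bile duct cells, was low, at 7.61 to 9.77 CPM in depleted and 11.5 to 13.7 CPM in competent samples. The biliary marker Cftr was also low, at means of 1.66 CPM in depleted and 2.03 CPM in competent samples. Krt7, the other keratin of the biliary list, was abundant, at means of 2471 CPM in depleted and 3150 CPM in competent samples.

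The comparison asked which genes differ between cilia depleted and cilia competent cells. The receptor genes Notch1 and Notch2, the nuclear partner Rbpj and the target Hes1 were higher in depleted cells, and the ligand genes Jag1 and Jag2 and the target Nrarp were lower. Notch3, Dll1 and Hey1 did not pass the test. The changes were unequal in size: Hes1 was 4.17-fold higher and Notch1 1.88-fold higher, whereas Jag1 was 1.13-fold lower. All 10 members passed the filter on low counts. At an adjusted p below 0.05 in edgeR's quasi-likelihood test, 4 of 10 members were higher, where 34.9% of the 13839 genes tested were, and 3 of 10 were lower, where 34.3% were. The 7 called members were also those whose groups did not overlap, where 36.4% of all tested genes were higher in every depleted sample, 36.1% lower in every one, and 72.5% either. Against a minimum fold change of 1.2, 5 members passed, where 45.3% of genes did. The share of members called was therefore close to that of all genes, of which 69.2% were called in either direction. The members' median log2 change was 0.14, and that of all tested genes was -0.01. With an offset for transcript length, described with the length trend, these medians were -0.05 and -0.06.

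**Figure D1:**
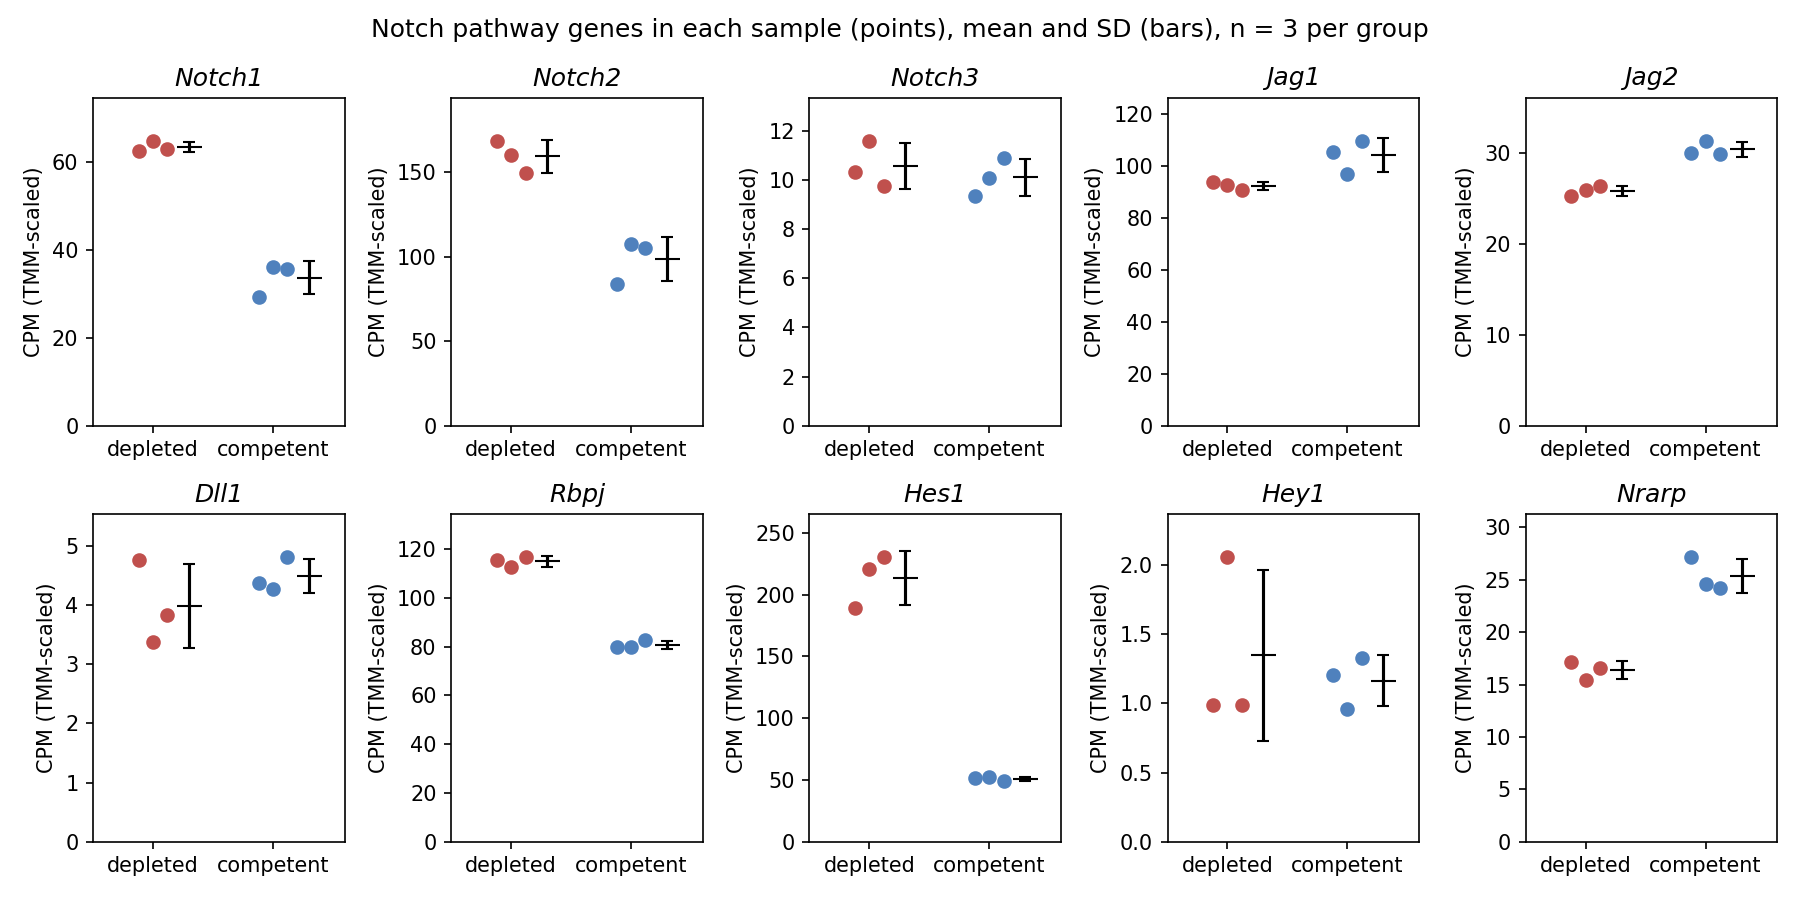
Expression of the 10 Notch pathway genes in CPM scaled by TMM (y axis, from 0, a scale of its own for each gene) in the 3 cilia depleted and the 3 cilia competent samples. Each point is 1 sample and bars give the mean and SD; for Hes1 the depleted samples sit between 189 and 230 CPM and the competent samples between 49.4 and 52.2 CPM.

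The receptors are the part of the pathway that receives the signal. Notch1 (ENSMUSG00000026923; GRCm38 chromosome 2, 26457903 to 26516663, minus strand) had 62.55, 64.8 and 62.8 CPM in the depleted samples and 29.3, 36.0 and 35.6 CPM in the competent samples. Every depleted sample lay above every competent sample, and competent replicate 1 was the lowest of all 6. Its log2 change was 0.91 (SE 0.068, 95% interval 0.77 to 1.06, adjusted p = 5.95e-08). Notch2 (ENSMUSG00000027878; chromosome 3, 98013527 to 98150361, plus strand), the receptor most tied to bile duct formation, had 169, 160 and 150 CPM in depleted samples and 83.9, 107 and 105 CPM in competent samples. Again the groups did not overlap and competent replicate 1 was lowest. Notch2 was 1.61-fold higher in depleted cells, a log2 change of 0.69 (SE 0.078, 95% interval 0.52 to 0.86, adjusted p = 3.35e-06). In bulk samples a shift in the mix of cells and a change in RNA per cell cannot be told apart.

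Notch3 (ENSMUSG00000038146; chromosome 17, 32120820 to 32166852, minus strand), a receptor best known from vascular smooth muscle, had 10.3, 11.6 and 9.77 CPM in depleted samples and 9.37, 10.1 and 10.9 CPM in competent samples. The groups overlapped, and the log2 change of 0.06 had a 95% interval from -0.14 to 0.26 (adjusted p = 0.571). Notch1 and Notch2 thus differed between the groups by more than the spread between samples, while a Notch3 difference was not detectable here. The difference between their changes was tested only for the ratio of Notch2 to Notch1. On the log2 scale this ratio averaged 1.33 ± 0.093 in depleted and 1.55 ± 0.032 in competent samples (SD, n = 3 each), a difference of -0.22. An exact two-sided permutation test gave p = 0.1, the smallest that 3 against 3 allows, and p = 0.133 adjusted over the 4 ratios tested.

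The ligands are the part of the pathway that sends the signal. Jag1 (ENSMUSG00000027276; chromosome 2, 137081456 to 137116644, minus strand), the Alagille syndrome gene, had 93.8, 92.8 and 90.8 CPM in depleted samples and 106, 97.0 and 110 CPM in competent samples. All depleted samples lay below all competent samples, but depleted replicate 1 and competent replicate 2 were close. The log2 change was -0.17 (SE 0.049, 95% interval -0.28 to -0.07, adjusted p = 0.00658). Jag2 (ENSMUSG00000002799; chromosome 12, 112907819 to 112929776, minus strand), its paralogue, had 25.3, 25.97 and 26.4 CPM in depleted samples against 30.0, 31.4 and 30.0 CPM in competent samples. It was lower in every depleted sample, with a log2 change of -0.23 (SE 0.052, 95% interval -0.35 to -0.12, adjusted p = 0.00128). The log2 ratio of Jag1 to Jag2 averaged 1.84 ± 0.054 in depleted and 1.77 ± 0.13 in competent samples (SD, n = 3 each), and the groups overlapped (exact two-sided permutation test, p = 0.6). Dll1 (ENSMUSG00000014773; chromosome 17, 15367354 to 15376872, minus strand), a Delta-type ligand, was scarce, with 4.75, 3.37 and 3.82 CPM in depleted and 4.37, 4.27 and 4.81 CPM in competent samples. Its groups overlapped, and the 95% interval of its log2 change ran from -0.49 to 0.12 (adjusted p = 0.258). Of its exon bases 20.5% lie opposite another gene, and whether counting used strand is not given in the sources used here.

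Rbpj (ENSMUSG00000039191; chromosome 5, 53466152 to 53657362, plus strand) encodes the DNA-binding protein through which every Notch receptor acts, and which represses the same targets when no receptor fragment is present. It had 115, 113 and 117 CPM in depleted samples against 79.9, 79.9 and 82.7 CPM in competent samples. The groups were far apart compared with their spread, and the change was 1.42-fold (log2 change 0.51, SE 0.041, adjusted p = 1.12e-07). The annotated copy Rbpj-ps3 had 494, 661 and 723 counts in depleted and 479, 494 and 593 counts in competent samples, and its log2 change was 0.47 (adjusted p = 3.73e-05). Reads can be split between Rbpj and this copy, so the level of Rbpj is uncertain to that extent.

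The targets went different ways. Hes1 (ENSMUSG00000022528; chromosome 16, 30064384 to 30067796, plus strand), a transcriptional repressor and the classical readout of Notch, had 189, 220 and 230 CPM in depleted samples against 52.0, 52.2 and 49.4 CPM in competent samples. Depleted replicate 1 was the lowest of its group and still stood far above the competent samples. Hes1 rose by 2.06 on the log2 scale (SE 0.066, 95% interval 1.92 to 2.20, adjusted p = 1.52e-11). A log2 change this large or larger was found for 160 of the 13839 tested genes (1.16%). Nrarp (ENSMUSG00000078202; chromosome 2, 25180758 to 25183339, plus strand), a Notch target whose product limits Notch signalling, had 17.1, 15.4 and 16.6 CPM in depleted and 27.2, 24.6 and 24.2 CPM in competent samples. All depleted samples were lower, and the change was 1.55-fold (log2 change -0.63, SE 0.068, adjusted p = 2.09e-06). An antisense gene lies opposite 79.4% of the exon bases of Nrarp, and without a stated strand setting reads from either strand cannot be told apart.

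Hey1 (ENSMUSG00000040289; chromosome 3, 8663359 to 8667256, minus strand), a repressor of the HES-related HEY family, was near the lower end of detection. It had 25, 66 and 35 counts, or 0.990, 2.06 and 0.991 CPM, in depleted samples and 41, 34 and 50 counts, or 1.204, 0.962 and 1.33 CPM, in competent samples. Depleted replicate 2 was the highest of all samples and the other depleted samples lay within the competent range. The 95% interval of the log2 change, -0.41 to 0.85, leaves room for a change in either direction (adjusted p = 0.524). The log2 ratio of Hes1 to Nrarp averaged 3.70 ± 0.20 in depleted and 1.02 ± 0.075 in competent samples (SD, n = 3 each), so the ratio was 6.42-fold higher. That of Hes1 to Hey1 averaged 7.39 ± 0.58 in depleted and 5.47 ± 0.27 in competent samples (SD, n = 3 each), 3.79-fold higher. Both separated all depleted from all competent samples (exact two-sided permutation test, p = 0.1 each, the smallest possible, and p = 0.133 adjusted over the 4 ratios).

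By Euclidean distance of log2 CPM over the 6 samples, each gene centred on its competent mean, the genes whose pattern was nearest to that of Hes1 among 10501 candidates were Pdk4, Ier5, Zbtb2, Gadd45a and Grasp, at distances of 0.20 to 0.25. This measure rests almost wholly on the size of the group difference. Ier5, an immediate-early response gene, had 413, 420 and 427 CPM in depleted and 109, 107 and 104 CPM in competent samples. Gadd45a, a stress-induced growth arrest gene, had 236, 226 and 249 CPM in depleted and 62.6, 60.3 and 56.4 CPM in competent samples. Pdk4, the nearest of all, averaged 12.8 CPM in depleted and 3.25 CPM in competent samples. Zbtb2 averaged 113 and 27.7 CPM and Grasp 139 and 34.4 CPM in depleted and competent samples. A shared function of these genes was not tested.

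**Figure D2:**
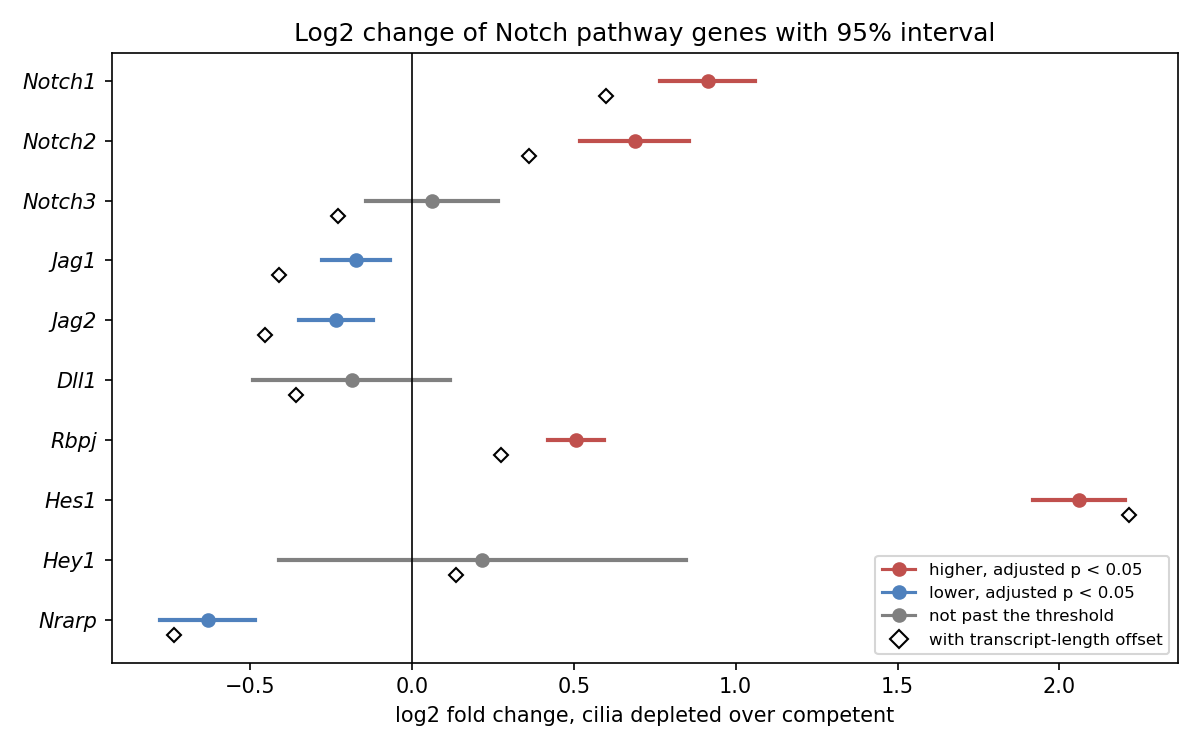
Log2 fold change of each gene, cilia depleted over competent (x axis), with its 95% interval from edgeR (lines) and the value after an offset for transcript length (open diamonds). Hes1 stands apart at 2.06, and the diamonds of the genes with long transcripts lie left of their circles, as for Notch1 at 0.60 against 0.91.

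Transcript length moved with the change between the libraries. Among the 2766 tested genes with the longest main transcripts, 4847 nt or more, the median log2 change was 0.25, and among the 2769 with the shortest, 1567 nt or less, it was -0.28. The members that rose include long transcripts, with main transcripts of 9488 nt for Notch1, 10500 nt for Notch2 and 5440 nt for Rbpj, while that of Hes1 has 1468 nt. With the length trend of each library removed, Notch1, Notch2, Rbpj and Hes1 were still higher, with log2 changes of 0.60, 0.36, 0.28 and 2.21. Jag1, Jag2 and Nrarp were still lower, at -0.41, -0.45 and -0.73. Notch3 turned to -0.23 (adjusted p = 0.0271) and Dll1 to -0.36 (adjusted p = 0.0322), so that 4 members were higher and 5 lower under this offset, where 30.1% of all genes were higher and 39.7% lower.

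Levels can be compared between genes only per length, in CPM per kb of main transcript. Counts were made per gene, and the order and sums below depend on the length chosen. For Rbpj all exon bases together span 12750 nt against 5440 nt of main transcript. For Jag1 these lengths are 5827 and 5612 nt, so the order of Rbpj against Jag1 and Notch2 holds for main transcript length only. In depleted cells Hes1 stood first at 145 ± 14.7 CPM per kb, followed by Rbpj at 21.1 ± 0.40, Jag1 at 16.5 ± 0.27, Notch2 at 15.2 ± 0.91 and Notch1 at 6.68 ± 0.13 CPM per kb (SD, n = 3). Nrarp, at 6.34 ± 0.34 CPM per kb, overlapped Notch1, and Jag2 came next at 5.07 ± 0.11 CPM per kb. In competent cells Hes1 also stood first, at 34.9 ± 1.06 CPM per kb, and Jag1, at 18.6 ± 1.17 CPM per kb, came before Rbpj, at 14.9 ± 0.30 CPM per kb (SD, n = 3). Nrarp and Notch2 overlapped there, at 9.81 ± 0.62 and 9.42 ± 1.24 CPM per kb, and Jag2 and Notch1 followed at 5.96 ± 0.16 and 3.55 ± 0.39 CPM per kb. Notch3 and Dll1 overlapped each other in both groups, at 1.32 ± 0.12 and 1.11 ± 0.20 CPM per kb in depleted cells and 1.26 ± 0.095 and 1.25 ± 0.079 CPM per kb in competent cells, and Hey1 was last in both. Summed over Notch1 to Notch3, receptor level was 24.0, 23.5 and 22.1 CPM per kb in depleted samples against 12.3, 15.3 and 15.2 CPM per kb in competent samples. The summed level of Jag1, Jag2 and Dll1 was 23.0, 22.6 and 22.4 CPM per kb in depleted samples against 25.9, 24.6 and 26.8 CPM per kb in competent samples. Receptor over ligand level was therefore 1.02 ± 0.033 in depleted and 0.553 ± 0.075 in competent samples (SD, n = 3 each), and the groups did not overlap.

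**Figure D3:**
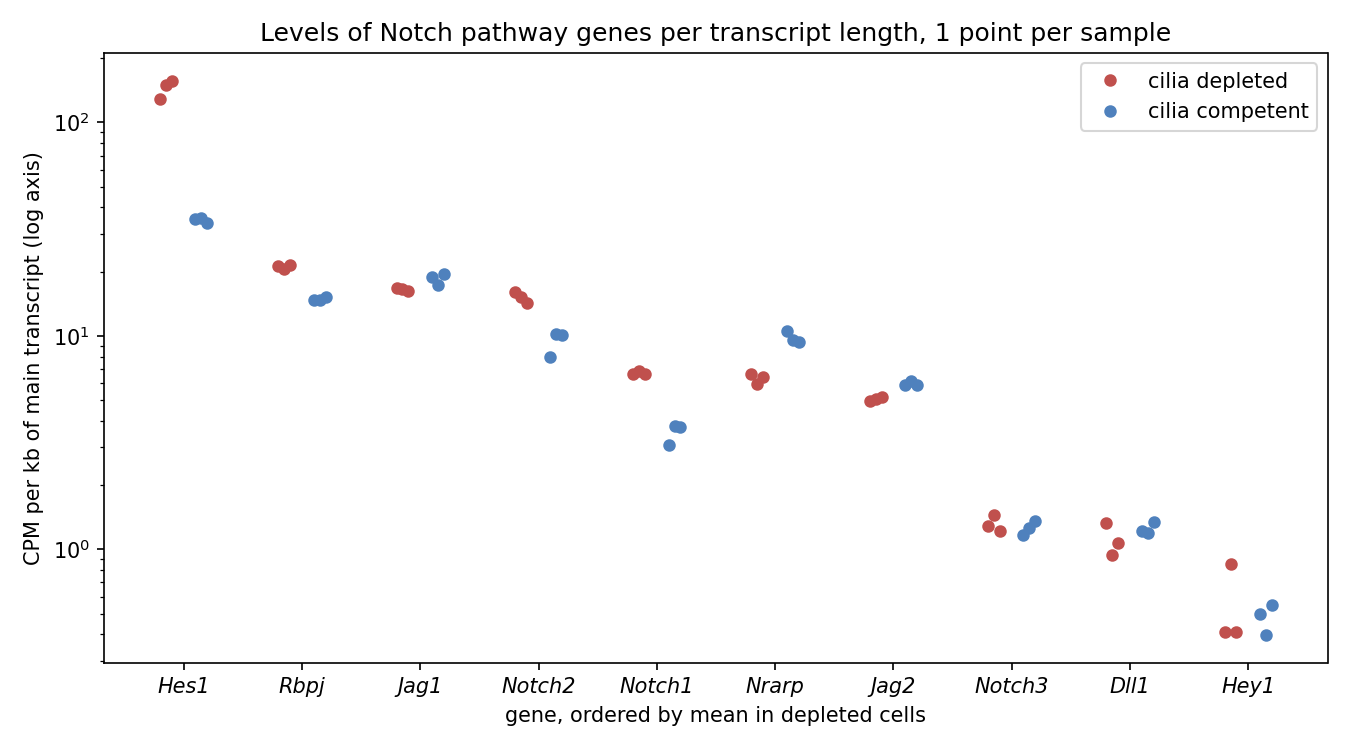
Level of each gene in CPM per kb of main transcript (log y axis), 1 point per sample, depleted left of competent, ordered by the mean in depleted cells. Hes1 is highest in both groups and Hey1 lowest. By main transcript length Rbpj lies above Jag1 in depleted cells and below it in competent cells, an order that depends on the length used.

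Promoter windows of 300 bases, from 250 before to 50 after the annotated start, were taken from RefSeq on GRCm38.p6 for 8 of the 10 members, in 10 entries. Hes1 and Hey1 had no entry. The windows of Notch1, Rbpj and Jag2 lie wholly inside the gene spans given above, and starts further upstream in those spans were not scanned. The Dll1 window at 15376073 to 15375774 also lies inside its span, while the other Dll1 window lies upstream of that span. The windows of the called receptor genes, of Rbpj and of Nrarp are shown because Notch1, Notch2 and Rbpj were higher while Nrarp, a target, was lower. Capitals mark matches on either strand to TGGGAA, the core of the sequence bound by RBPJ, or to CACNAG, the N-box bound by HES repressors. The windows, 5′ to 3′ on the gene's strand, were chr2:26503773-26504072 for Notch1 (minus strand), chr3:98013288-98013587 for Notch2 (plus), chr5:53590096-53590395 for Rbpj (plus) and chr2:25180508-25180807 for Nrarp (plus).
Notch1: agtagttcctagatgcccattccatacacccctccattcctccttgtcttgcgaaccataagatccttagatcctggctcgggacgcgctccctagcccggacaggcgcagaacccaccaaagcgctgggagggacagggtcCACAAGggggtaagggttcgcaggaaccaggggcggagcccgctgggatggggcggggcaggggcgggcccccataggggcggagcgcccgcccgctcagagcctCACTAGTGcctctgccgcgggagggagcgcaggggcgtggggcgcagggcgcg
Notch2: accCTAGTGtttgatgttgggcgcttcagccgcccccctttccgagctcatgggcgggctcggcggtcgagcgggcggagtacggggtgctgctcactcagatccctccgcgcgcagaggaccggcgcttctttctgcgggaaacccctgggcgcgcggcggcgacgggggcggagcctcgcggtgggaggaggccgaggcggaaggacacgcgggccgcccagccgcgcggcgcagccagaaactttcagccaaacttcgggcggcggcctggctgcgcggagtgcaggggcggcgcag
Rbpj: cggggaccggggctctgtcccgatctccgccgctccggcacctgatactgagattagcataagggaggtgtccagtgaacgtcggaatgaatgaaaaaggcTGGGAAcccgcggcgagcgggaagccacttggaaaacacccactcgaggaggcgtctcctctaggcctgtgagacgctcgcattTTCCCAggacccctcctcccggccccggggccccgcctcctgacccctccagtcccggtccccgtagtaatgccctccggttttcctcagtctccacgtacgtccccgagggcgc
Nrarp: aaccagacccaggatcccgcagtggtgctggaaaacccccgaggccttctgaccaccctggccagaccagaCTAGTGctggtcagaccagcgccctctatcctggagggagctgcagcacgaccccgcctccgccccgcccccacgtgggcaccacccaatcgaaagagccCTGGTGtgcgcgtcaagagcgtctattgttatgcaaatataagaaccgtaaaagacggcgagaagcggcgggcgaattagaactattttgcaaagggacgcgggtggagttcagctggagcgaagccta

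Rbpj held TGGGAA and its reverse complement, starting at -149 and -65 from the annotated start, and a second Rbpj entry that shares bases with the first held the match at -65 as well. No other member's window held it, where 25.6% of 32851 promoter entries did. The N-box was found 3 times in the Notch1 window, of which 2 matches overlap, once in that of Notch2 and 2 times in that of Nrarp. It was also found 2 times in the window of Notch3 and once in 1 of 2 Dll1 entries, both genes that did not pass the test. Of all promoter entries, 42.5% held at least 1 N-box. The windows of Jag1 and Jag2 held neither. TGANTCA, a loose form of the AP-1 site that allows any base at its centre, was found in 1 of 2 Dll1 entries. It was in no other member's window, where 7.81% of all entries held this loose form. The Dll1 match reads TGATTCA, whereas the usual AP-1 site has C or G at its centre. A match describes letters in a window and is not a measured binding site.

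Around the members, 68 genes of the wider pathway were followed in 10 lists by role. Of these, 58 were tested, 23 were higher, 16 lower and 19 did not pass, and their median log2 change was 0.05. With the length offset the balance turned over, to 16 higher and 26 lower with a median of -0.11. Without the 10 members, 48 were tested, of which 19 were higher and 13 lower, and 12 higher and 21 lower with the length offset. These counts and all list counts below stand against 34.9% of all tested genes higher and 34.3% lower, and against 30.1% higher and 39.7% lower with the length offset. Among the 10 genes of receptor cleavage 7 were lower, 0 were higher and 3 did not pass, and the median log2 change was -0.34, where 34.3% of all tested genes were lower. The lower genes included Psen2, Ncstn, Aph1a and Psenen, which encode subunits of gamma-secretase, and the protease genes Adam10 and Adam17. Psen2, which encodes a presenilin, the catalytic subunit, had 7.25 ± 0.26 CPM in depleted and 14.01 ± 0.66 CPM in competent cells (SD, n = 3 each; log2 change -0.95, adjusted p = 2.32e-07). Psenen, a small subunit gene, and Adam17 had log2 changes of -0.70 and -0.55. With the length offset 9 genes of this list were lower, where 39.7% of all genes were, and Psenen, a short transcript, stood at -0.41.

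Of 9 genes of the coactivator list, which includes Rbpj, 6 were higher, 0 lower and 3 did not pass (median log2 change 0.51), where 34.9% of all tested genes were higher and 34.3% lower. Maml2, a Mastermind gene, had 54.9 ± 3.74 CPM in depleted and 27.8 ± 1.84 CPM in competent cells (SD, n = 3 each; log2 change 0.98, adjusted p = 1.44e-08). Maml1 and the acetyltransferase gene Crebbp rose by 0.78 and 0.83 on the log2 scale. With the length offset the coactivator list had 5 higher and 3 lower genes and a median of 0.28, where 30.1% of all genes were higher and 39.7% lower. Of 10 RBPJ corepressors 7 were higher and 2 lower (median log2 change 0.24), against the same 34.9% and 34.3% of all genes, among them Tle3, a Groucho-family gene, with a log2 change of 0.85 and the deacetylase gene Hdac1 with -0.48. With the length offset 3 of the 10 were higher and 3 lower.

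Receptor turnover genes held 5 higher and 0 lower of 7 tested (median log2 change 0.26), where 34.9% of all genes were higher, with Dtx2, which encodes a Deltex ubiquitin ligase, at 0.50, Fbxw7, whose product marks the receptor fragment for destruction, at 0.42, and Numb, an inhibitor of Notch, at 0.30. With the length offset 3 of the 7 were higher, where 30.1% of all genes were, and 0 lower. Of 4 tested glycosylation genes 2 were lower and 0 higher, where 34.3% of all genes were lower, and 3 were lower with the length offset. Poglut1 had a log2 change of -0.54 and the Fringe gene Lfng -0.34. Of 5 genes for ligand endocytosis 2 were higher, 1 lower and 2 did not pass, close to the shares of all genes, and 2 were higher and 2 lower with the length offset. Neurl3, a gene of the neuralized family, had 515 ± 37.6 CPM in depleted and 156 ± 15 CPM in competent cells (SD, n = 3 each; log2 change 1.72, adjusted p = 1.59e-10). A role of Neurl3 in ligand endocytosis was not tested here. Mib2, a ligand ubiquitin ligase gene, rose by 0.64 and its paralogue Mib1 fell by 0.15 on the log2 scale. Mib1 had overlapping groups and an adjusted p of 0.0263 in edgeR, and a log2 change of -0.48 with the length offset.

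Of the remaining receptors, ligands and HES and HEY genes, most had few counts. Notch4, the endothelial receptor, had 0.787 ± 0.17 CPM in depleted and 0.528 ± 0.21 CPM in competent cells (SD, n = 3 each; adjusted p = 0.144), and the ligand-like Dlk2 had 0.752 ± 0.17 CPM in depleted and 0.759 ± 0.13 CPM in competent cells (SD, n = 3 each; adjusted p = 0.914). Hes5, Dtx1 and Dlk1 had 0 counts in all 6 libraries. Hes7, Hey2 and Heyl had at most 11 counts in any library and were not tested. Hes6, a HES family gene that opposes Hes1 in neural cells, had 30.6 ± 1.9 CPM in depleted and 38.0 ± 0.64 CPM in competent cells (SD, n = 3 each; log2 change -0.31, adjusted p = 0.000222, and -0.12 with the length offset). Of the 3 HES and HEY genes tested, Hes1 was higher, Hes6 lower, and Hey1 did not pass.

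**Figure D4:**
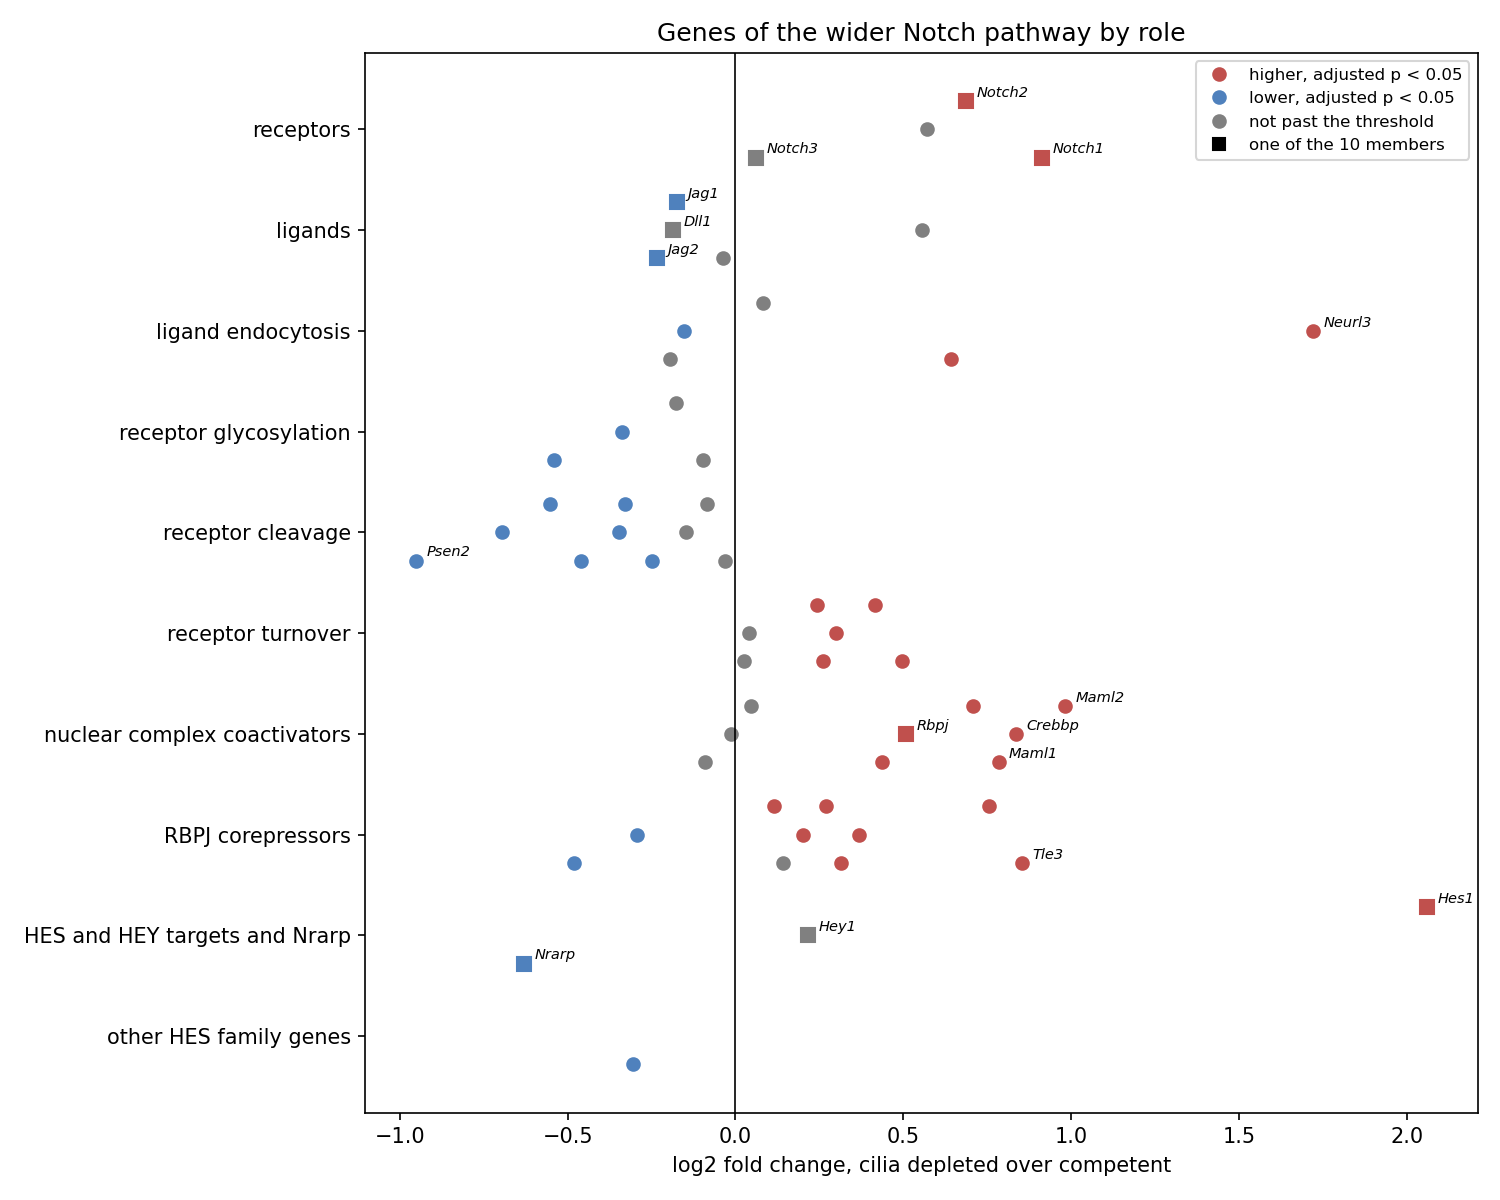
Log2 fold change, cilia depleted over competent (x axis), of the 58 tested genes of the wider Notch pathway, in rows by role; squares are the 10 members, circles the other genes, and colour gives the edgeR call. All called genes of receptor cleavage lie left of 0 and all called genes of receptor turnover and of the coactivator list lie right of it.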

How the data were processed

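RNA of 6 samples was sequenced from poly-A libraries made with a directional kit, per the labels' protocols. The authors deposited unnormalized counts per gene, 1 column a sample. Per the submitters' processing notes the tools included STAR 2.7.1a, featureCounts and DESeq2 1.34.0, with GRCm38; the annotation and strand setting are not given in the sources used here. Columns were matched to samples by group and replicate number, WT being competent and KO depleted.

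Counts were tested with edgeR 4.0.16 (R 4.3.3): filterByExpr, TMM, glmQLFit and glmQLFTest, two-sided, group as the only term, 3 depleted over 3 competent samples, Benjamini-Hochberg adjustment over 13839 genes, threshold 0.05. Intervals are 95% and standard errors are on the log2 scale. Positions and lengths came from GENCODE M21, which held 31976 of the 32061 identifiers. Replicates differed by more than sampling noise (chi-square per degree of freedom 5.33 to 9.44 within groups), so each counted once. The code was tested on simulated counts. The members and lists were chosen with earlier results of these data known. All members are named, and from each list up to 3 called non-members, by size of change, or else the 1 with the highest mean CPM; Rbpj-ps3 and any other genes named were chosen after their values were seen. Some genes of the lists are not reported here by name. Alternatives included other scalings, filters and tools, a replicate block, leaving out each sample, and an offset for transcript length.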

Additional observations from a re-analysis of the deposited data

How the results depend on the processing

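Of the 10 members, all kept their call with DESeq2-style, upper-quartile and library-total scaling, with DESeq2 1.42.0, limma-voom, no filter, a filter of 1 CPM in 3 samples, an adjusted p below 0.01, and without each sample in turn. Library totals moved the median log2 change of all genes to -0.13. The count of members called lower was 5 with the length offset, 5 with the length offset and replicate block together, and 1 against a fold change of 1.2, where Jag1 and Jag2 no longer passed, 5 members in all did, and 6265 genes (45.3%) were called. Genes called numbered 8929 to 9333 without 1 sample. Same-numbered samples did not deviate together (r of -0.0088, 0.032 and -0.0046), so the numbers were not taken as pairs; the replicate block called 9526 genes and changed no member's call. Notch3, not called, turned to -0.066 with library totals, -0.23 with the length offset, -0.23 with that offset and the block, and -0.011 without depleted replicate 2, within a range of -0.011 to 0.121 without 1 sample. Hey1, also not called, turned to -0.23 without depleted replicate 2, and ranged from -0.23 to 0.42 without 1 sample. Without 1 sample the Jag1 to Jag2 difference ranged from -0.0079 to 0.116. Counts of 25 to 66 limit Hey1. The cause of these shifts was not tested.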

Other observations

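Genes of bile duct identity also differed. Sox9, a biliary transcription factor that responds to Notch in the developing liver, had 356, 331 and 365 CPM in depleted samples against 88.4, 88.8 and 87.3 CPM in competent samples. The surface marker Epcam had 141, 128 and 148 CPM in depleted against 264, 254 and 260 CPM in competent samples, and Spp1, which encodes osteopontin, had 1190, 1170 and 1281 CPM in depleted against 2431, 2316 and 2398 CPM in competent samples. All 3 passed the edgeR test, Sox9 higher and the others lower in depleted cells, and in none did the groups overlap.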
